A study of Mus musculus with 4 samples.

Results

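Histone genes were followed here through single-cell libraries of the mouse mammary epithelium. The 7 members, of 79 histone genes and 31053 genes in the count tables, were Hist1h4i, Hist1h4c, Hist1h1c, Hist1h2bc, H1f0, H2afz and H3f3b. They had been chosen by name, with their levels in these data known, and every level by cell class given here is therefore a description without a test. The cells came from the fourth mammary glands of FVB mice that all carried a floxed Tfap2c gene (Tfap2cfl/fl) and the Krt5-CreERT2 transgene, a recombinase driven by the promoter of a basal keratin and switched on by tamoxifen metabolites. Mice received intraperitoneal corn oil, 2 mice, or intraperitoneal 4-hydroxytamoxifen (4OHT), 2 mice, from 4 weeks of age, and the glands were taken at 9 weeks. The sample characteristics give the treatment as 5 days and the treatment protocol as 1 week. The study asked what conditional loss of Tfap2c, which encodes the transcription factor AP-2γ, does to mammary stem cells.

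Histones are the proteins around which DNA is wound: H2A, H2B, H3 and H4 form the core of the nucleosome, and H1 binds the linker DNA. Most histone genes lie in clusters and are transcribed mainly while DNA is copied. Their mRNA is then cut just after a stem-loop and carries no poly(A) tail, so that libraries primed on poly(A) miss most of it. Some cluster genes can also end at a later poly(A) site, and the variant histone genes outside the clusters, such as H1f0, H2afz and H3f3b, make ordinary polyadenylated mRNA at all stages of the cell cycle.

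The 4 libraries held between 3546 and 5545 cells and between 17351950 and 22017878 UMIs, the unique molecular identifiers that count captured mRNA molecules, and 155 cell barcodes occurred in more than 1 library. Cells with at least 1000 UMIs were called basal when the summed UMIs of Krt5, Krt14, Krt17 and Acta2 were at least 5 and more than 3 times those of Krt8, Krt18 and Krt19, and luminal in the reverse case. Luminal cells were called hormone-sensing when Ly6d, Fxyd2 and Gpx3 summed to at least 3 UMIs and exceeded Wfdc18, Csn3 and Ltf, and progenitor otherwise. This classed 13825 of 18223 cells: 7028 basal, 5629 luminal progenitor and 1168 hormone-sensing. Cells close to the keratin limits numbered 774, 358 and 74 in these classes. Other markers were highest in the class the rule gave them. Levels are given as CPM, a gene's UMIs in a class and library as counts per 1000000 UMIs of that sum. The basal list summed to 3801 to 5036 CPM in basal cells against 99.8 to 238 in progenitors, and the hormone-sensing list to 1162 to 2162 in its class against 22.1 to 127 in the others. The progenitor list summed to 7054 to 9424 in progenitors and 196 to 372 in hormone-sensing cells, but was also present in basal cells, at 1037 to 2436. The fibroblast list summed to 1346 CPM in the hormone-sensing cells of 4OHT library 1 and to 53.5 to 243 in that class of the other libraries. Tfap2c was not called lower in the basal cells labelled 4OHT, with 285 and 325 CPM against 389 and 285 under corn oil (edgeR quasi-likelihood log2 fold change -0.08, SE 0.25, Benjamini-Hochberg adjusted p = 0.999). Tags outside the floxed part of the gene would not show a deletion, so the groups are named below by their labels.

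The 3′ ends of the 7 transcripts are shown first, because the library chemistry reads 3′ ends of polyadenylated mRNA. In GENCODE M21 (GRCm38), 3 members had a histone stem-loop, searched for as a 6-base stem around a 4-base loop within 150 bases of the stop codon. In each, the 16 bases of the stem-loop are in capitals.
Hist1h4i: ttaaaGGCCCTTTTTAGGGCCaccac
Hist1h4c: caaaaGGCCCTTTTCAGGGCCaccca
Hist1h1c: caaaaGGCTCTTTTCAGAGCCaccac
The capitals lie at chr13:22040966-22040981 on the minus strand in Hist1h4i, chr13:23698089-23698104 on the minus strand in Hist1h4c and chr13:23739512-23739527 on the plus strand in Hist1h1c. All 3 are exonic and follow the coding sequence, starting 31, 34 and 25 bases after the stop codon. The annotated transcripts did not stop there. Hist1h4i continued for 330 bases after the stem-loop, Hist1h4c for 454 and Hist1h1c for 840. Hist1h4i and Hist1h1c each held 2 copies of a poly(A) signal hexamer (AATAAA or ATTAAA) past the loop, the last of them 21 and 26 bases from the annotated end, and Hist1h4c held 0.

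The fourth cluster member, Hist1h2bc, had no stem-loop in the searched bases. Its longest annotated transcript, the one searched, was spliced 9 bases after the stop codon, over 2 exons, and ran on for 742 bases. The variant genes ran on for 1198 bases (H1f0), 475 bases (H2afz) and 1495 bases (H3f3b) after the stop codon.

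**Figure D1:**
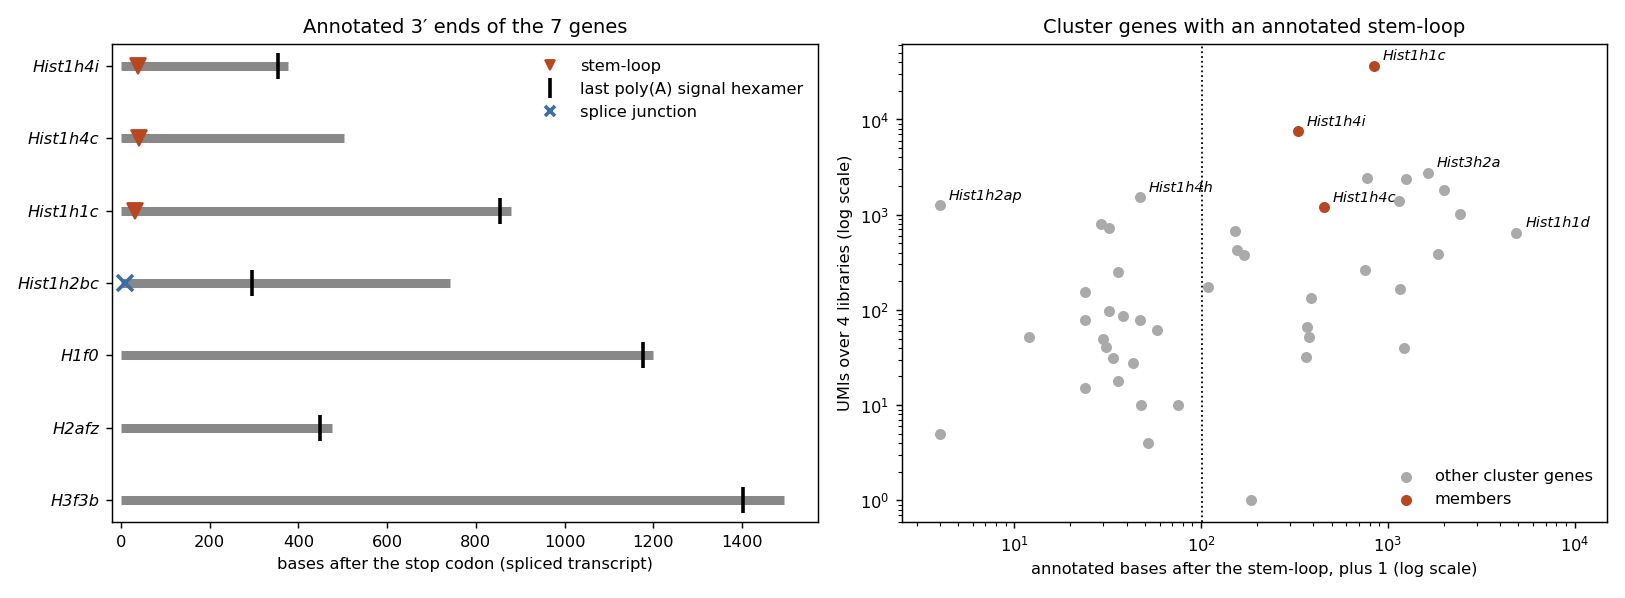
Left, annotated bases after the stop codon for each of the 7 genes, with stem-loops and poly(A) signals marked. Right, UMIs over the 4 libraries against annotated bases after the stem-loop for the cluster genes that have one, both on log scales; the dotted line marks 100 bases, past which 23 genes lie.

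The annotation of long ends went with the number of UMIs across the clusters. Of 67 cluster genes, 45 had a stem-loop in their longest annotated transcript. Some of the rest, such as Hist1h1b and Hist1h4k, had 0 annotated bases after the stop codon, so none could be found there. The 23 with at least 100 annotated bases after a stem-loop had a median of 429 UMIs over the 4 libraries (1 to 36691). They held 55.9% of all cluster UMIs, of which the member Hist1h1c alone had 36691 of 108472. The 22 with shorter ends had a median of 56.5 UMIs, at most 1520, and held 4.95%. A read past an annotated end is not counted to the gene, so part of this difference may lie in counting; that part was not tested.

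As UMI counts, which are not scaled by length, the members made up 79.5% of 500543 histone UMIs. H3f3b, a gene for the replacement histone H3.3, alone held 53.8% with 269387 UMIs. Among cluster genes, Hist1h2bc (an H2B gene, 41427 UMIs) and Hist1h1c (the linker histone H1.2, 36691 UMIs) held 72.0% of 108472 UMIs. Hist1h4i had 7529 UMIs and Hist1h4c 1198, while the median cluster gene had 78 and 38 of the 67 had under 100. Hist1h2bc, Hist1h1c and Hist1h4i had the most UMIs of all cluster genes.

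Hist1h4i and Hist1h4c both encode histone H4, and both were highest in luminal progenitor cells. Hist1h4i (chr13:22040636-22041362) was at 342 and 92.8 CPM in the progenitors of corn oil libraries 1 and 2 and at 97.2 and 213 in those of 4OHT libraries 1 and 2. In the same order its basal levels were 30.9, 25.8, 31.3 and 86.1, and its hormone-sensing levels 75.6, 37.6, 61.2 and 58.7. The progenitor level was above both other classes in 4 of 4 libraries, with no overlap of the ranges. Its mean of 186 ± 118 (SD, n = 4) was 4.28 times the basal mean and 3.20 times the hormone-sensing mean.

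Hist1h4c (chr13:23697635-23698454) had fewer UMIs and the same highest class. Its progenitor levels were 62.9, 17.3, 21.1 and 40.7 CPM, its basal levels 5.19, 3.67, 3.03 and 4.71, and its hormone-sensing levels 4.63, 1.76, 3.22 and 2.76. The progenitor mean of 35.5 ± 20.9 (SD, n = 4) was 8.56 times the basal and 11.5 times the hormone-sensing mean. In progenitors both H4 genes were highest in corn oil library 1 and next highest in 4OHT library 2.

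The 2 H4 genes encode one protein: 290 of 309 coding bases (93.9%) and 103 of 103 amino acids were identical. Their ends could still be told apart, since 0 words of 31 bases after the stop codon were shared. The last 150 bases before each annotated start are shown because both genes were highest in progenitors. They come from RefSeq (GRCm38.p6), with CCAAT and TATAA, on either strand, in capitals.
Hist1h4i: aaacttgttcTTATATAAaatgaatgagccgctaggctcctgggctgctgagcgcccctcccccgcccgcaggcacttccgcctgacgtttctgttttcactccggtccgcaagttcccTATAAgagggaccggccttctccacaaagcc
Hist1h4c: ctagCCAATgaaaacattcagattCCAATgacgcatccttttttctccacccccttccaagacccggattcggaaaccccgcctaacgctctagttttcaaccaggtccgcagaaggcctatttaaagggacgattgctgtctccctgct
These windows are chr13:22041363-22041512 and chr13:23698459-23698608, both on the minus strand. Over the full 250 bases, Hist1h4i held TATAA 3 times, with 2 of the matches overlapping on opposite strands, and CCAAT 0 times. Hist1h4c held CCAAT 2 times and TATAA 0 times. Neither held the octamer ATTTGCAT. Of 27025 promoters of this length, 34.5% held CCAAT, 23.5% TATAA and 1.61% the octamer, so the first 2 words are common.

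Hist1h1c and Hist1h2bc had another order: highest in hormone-sensing cells, then basal, then progenitor. Hist1h2bc (chr13:23684199-23692908) was at 1917, 1409, 2411 and 2265 CPM in hormone-sensing cells, at 419, 451, 390 and 1073 in basal cells and at 160, 216, 92.8 and 231 in progenitors. No class overlapped another. The hormone-sensing mean of 2000 ± 446 (SD, n = 4) was 3.43 times the basal and 11.4 times the progenitor mean.

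Hist1h1c (chr13:23738808-23740367) was at 1102, 955, 923 and 1682 CPM in hormone-sensing cells and at 403, 470, 295 and 1139 in basal cells. In progenitors it was at 191, 213, 80.1 and 350. The order held in 4 of 4 libraries, but the basal level of 4OHT library 2 lay within the hormone-sensing range and the progenitor level of that library within the basal range. Hormone-sensing means exceeded basal means 2.02-fold and progenitor means 5.59-fold.

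H1f0, the linker histone variant H1.0 (chr15:79028450-79030504), was highest in basal cells. Its levels were 211, 279, 228 and 710 CPM there, 118, 252, 99.8 and 224 in hormone-sensing cells and 61.4, 99.6, 48.1 and 109 in progenitors. Basal and progenitor cells did not overlap, and their means differed 4.48-fold, while hormone-sensing cells overlapped both. The annotated gene overlaps the antisense gene Gm49544, and whether counting used strand is not given in the sources used here.

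The other variant genes differed less between classes. H2afz encodes H2A.Z, an H2A variant found at promoters (chr3:137864487-137866922), and averaged 320 ± 51.5 CPM in basal cells, 318 ± 41.4 in progenitors and 238 ± 35.0 in hormone-sensing cells (SD, n = 4). Basal and progenitor levels did not differ beyond their spread. Progenitor levels were above hormone-sensing levels in 4 of 4 libraries, 1.34-fold in the means and with no overlap. H3f3b (chr11:116021912-116027962) averaged 3624 ± 969, 3378 ± 638 and 2780 ± 727, with overlap between all classes. It was lowest in hormone-sensing cells in 4 of 4 libraries.

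4OHT library 2 stood apart for most of these genes. In basal cells its level was 2.75 times the highest other library for Hist1h4i, 2.42 for Hist1h1c, 2.38 for Hist1h2bc, 2.54 for H1f0 and 1.37 for H3f3b. It was also the shallowest library, with a median of 3055 UMIs a cell against 3619 to 5299.5. H2afz was lowest there, at 255 CPM. The part of depth in these levels was not tested.

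**Figure D2:**
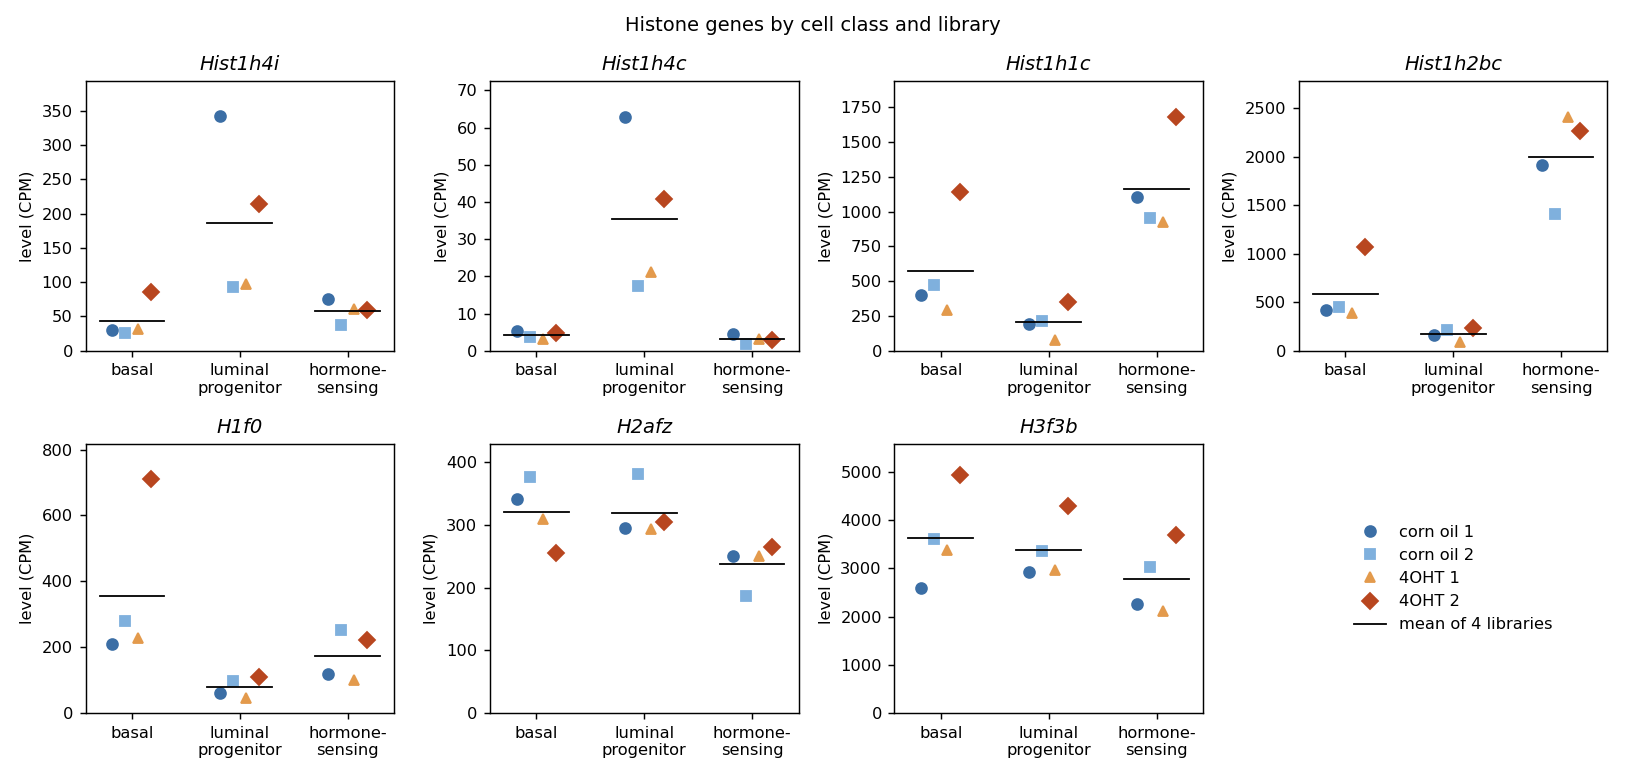
Level of each gene in CPM (linear axis from 0) in the 3 cell classes, 1 point a library. Hist1h4i and Hist1h4c are highest in progenitors, Hist1h2bc and Hist1h1c in hormone-sensing cells and H1f0 in basal cells, and H2afz and H3f3b differ less between classes.

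Other histone genes are given for comparison. H3f3a, second in UMIs after H3f3b with 43130, averaged 602 ± 86.4 CPM in basal cells and 409 ± 91.0 in progenitors. In hormone-sensing cells it averaged 680 ± 82.2 (SD, n = 4), above progenitors in 4 of 4 libraries with no overlap. H3f3b was lowest in that class. Of 10 H4 genes with at least 100 UMIs, 7 had a higher mean in progenitors than in basal cells, 6 of them in all 4 libraries. These counts include the members Hist1h4i and Hist1h4c, which were chosen with their levels known. The others higher in all 4 libraries were Hist1h4d, Hist1h4h, Hist1h4b and Hist1h4n. Hist2h4 had the reverse order, with means of 41.5 in basal cells and 13.5 in progenitors. Without the members, H4 genes summed to 103, 154 and 97.0 CPM in basal, progenitor and hormone-sensing cells, and H2B genes to 26.7, 22.3 and 66.4. With Hist1h2bc the H2B sums were 610, 197 and 2067, so 1 gene carried nearly all H2B UMIs.

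In means over the 4 libraries, the class differences were also seen in the share of cells with a UMI once each cell was thinned to 2000 UMIs. Hist1h4i was then found in 15.1% of progenitors (8.47 to 22.0% by library), 6.44% of basal and 9.39% of hormone-sensing cells (8.03 to 11.9%). In 4OHT library 1 its share was 8.47% in progenitors and 9.32% in hormone-sensing cells, the reverse order. Unthinned shares of Hist1h4i were 23.5, 9.73 and 24.1%. Hist1h4c was found in 6.26% of progenitors and under 1% of the other classes (0.840% and 0.955%). Hist1h2bc was found in 66.9% of hormone-sensing, 36.3% of basal and 15.0% of progenitor cells. Thinning left out 707 basal, 354 progenitor and 19 hormone-sensing cells with fewer UMIs. Some of the low shares may be free RNA, whose part was not tested.

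The UMIs of most members lay in few progenitors. For Hist1h4i the 10% of cells with most of its UMIs held 77.2 to 88.0% of them, depending on the library, and the most in 1 cell was 96 UMIs in corn oil library 1 and 29 to 35 in the others. In progenitors the top 10% of cells also held 75.9 to 84.1% of Hist1h2bc, 68.7 to 85.6% of H1f0 and 78.6 to 100% of Hist1h4c UMIs, against 39.2 to 42.5% for H2afz. In hormone-sensing cells, where Hist1h2bc was at a higher level, they held 48.5 to 58.5% of its UMIs. A gene with few UMIs a cell is counted in few cells, so these shares also follow the level.

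Some of the members were found together within cells. At 2000 UMIs, Hist1h4c was found in 27.6, 8.13, 21.7 and 24.7% of progenitors with a Hist1h4i UMI and in 5.24, 2.46, 2.41 and 3.79% of those without. Hist1h1c was found in 34.5, 42.3, 27.5 and 45.3% of the same Hist1h4i cells and in 14.8, 19.6, 8.91 and 25.8% of the rest. In hormone-sensing cells, Hist1h2bc was found in 87.1, 80.2, 83.0 and 82.9% of cells with Hist1h1c and in 48.1, 52.4, 48.5 and 56.5% of those without. The share was higher in the cells with the first gene in 4 of 4 libraries for each of these pairs. Among the pairs read, Hist1h4i and Hist1h4c had the reverse order in hormone-sensing cells of 4OHT library 2 (0 against 0.998%). H2afz, H3f3b and pairs of genes outside the members were not read this way. Cells of a library share its free RNA, and no test was made over cells.

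**Figure D3:**
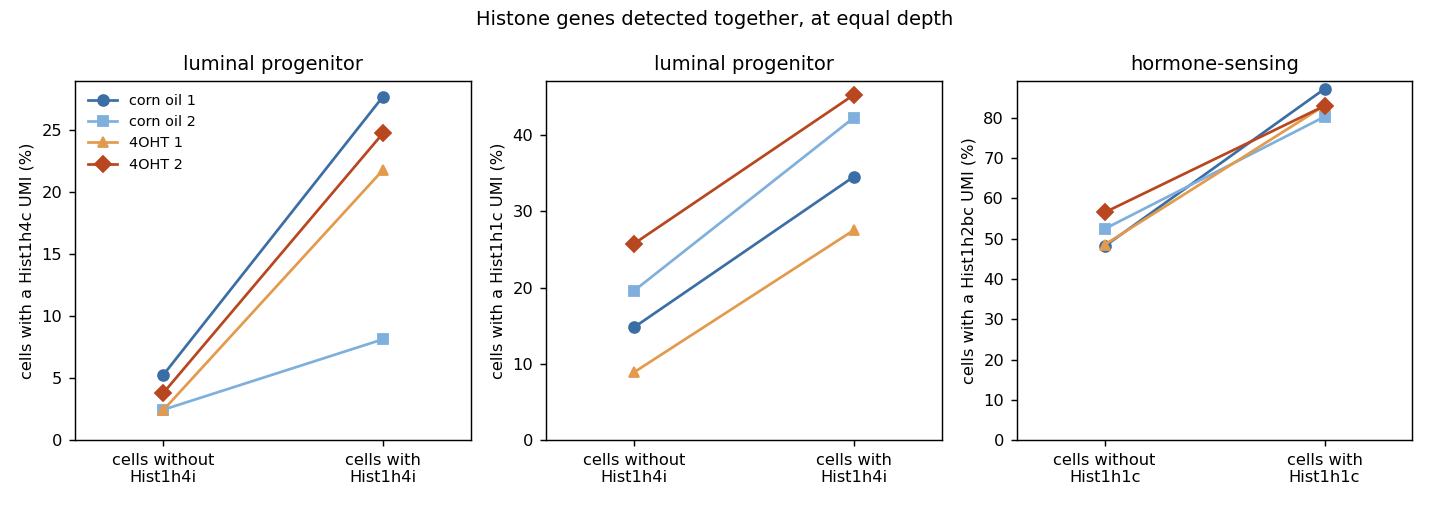
Percent of cells with a UMI of the second gene among cells without and with the first, each cell thinned to 2000 UMIs, 1 line a library. Lines rise in each panel, for Hist1h4c in progenitors with Hist1h4i from 2.41 to 5.24% up to 8.13 to 27.6%.

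The genes most like each member were taken by Pearson correlation of log2 levels over the 12 sums of library and class, among 4141 genes. The sums of a library share its depth and those of a class its cells, so these are descriptions. Hist1h4i was most like Cck (0.901), Cyb5a (0.861) and Elf5 (0.849), the last a transcription factor of luminal progenitors. Hist1h4c was most like Btn1a1 (0.970), which encodes a milk fat protein, Ier5 (0.958) and Clic6 (0.953). Hist1h2bc was most like Urah (0.973) and Enho (0.966), and Hist1h1c like Hist1h2bc (0.956). The H4 pair stood at 0.872, and Hist1h4c against Hist1h2bc at -0.775.

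Cells with at least 1 UMI of Mki67 or Top2a, which mark proliferating cells, were compared with cells that had none. There were 175 such cells of 13825: 83 basal (1.18%), 59 progenitor (1.05%) and 33 hormone-sensing (2.83%). Counts were summed per library and state, and libraries with fewer than 10 positive cells were left out, which removed 4OHT library 1. Positive progenitors were deeper, with median UMIs of 10838, 5347.5 and 7933 against 5273, 4776 and 3442 in corn oil 1, corn oil 2 and 4OHT 2. The scaling factors of the positive sums were higher by 0.43 (log2) in progenitors and 0.29 in basal cells, so fitted changes sit lower than ratios of CPM.

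In progenitors, H2afz was higher and 3 of the 4 cluster members were lower in Mki67 or Top2a positive cells. H2afz was at 1123, 760 and 920 CPM in positive cells against 280, 369 and 284 in negative cells. The states did not overlap (edgeR quasi-likelihood log2 fold change 1.16, SE 0.18, Benjamini-Hochberg adjusted p = 4.08e-05, higher in 3 of 3 libraries). In 4OHT library 1, whose 3 positive cells were not fitted, it was at 300 against 293.

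Hist1h1c was at 139, 65.8 and 154 CPM in positive progenitors against 192, 217 and 357 in negative ones (log2 fold change -1.54, SE 0.24, edgeR adjusted p = 5.43e-05). Hist1h2bc was at 53.9, 132 and 149 against 162, 218 and 234 (-1.30, SE 0.25, edgeR adjusted p = 0.000529). Hist1h4i was at 239, 11.97 and 159 against 344, 95.1 and 215 (-1.25, SE 0.27, edgeR adjusted p = 0.00229). Each was lower in positive cells of all 3 fitted libraries, from 65, 60 and 59 positive-cell UMIs for Hist1h4i, Hist1h1c and Hist1h2bc. The 3 positive cells of 4OHT library 1, not fitted, went the other way for Hist1h1c and Hist1h2bc. Hist1h1c was there at 120 CPM against 79.9, from 4 UMIs, and Hist1h2bc at 300 against 92.0, from 10. Hist1h4i was at 89.9 against 97.3, from 3 UMIs. For Hist1h4i, the positive cells of corn oil library 2 held only 2 UMIs, and the call was lost with DESeq2's Wald test. Hist1h4c, at -1.05, missed the threshold (edgeR adjusted p = 0.233), and H1f0 (0.12) and H3f3b (-0.02) did not pass it.

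All 7 members were tested: 1 was called higher and 3 lower, where 4.51% of 8644 genes were called, 1.39% higher and 3.12% lower. With comparator cells matched on total UMIs, 0 of 6 tested members passed (edgeR), 3 of them at an unadjusted p under 0.05; H2afz was then at 1.42 with adjusted p = 0.0515. Without 4OHT library 2 none of the 4 passed: adjusted p was 0.0957 for H2afz, 0.0837 for Hist1h1c and 0.0830 for Hist1h2bc.

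Several other histone genes were higher in the positive progenitors. Hist1h2ap, an H2A gene whose annotated transcript ends 3 bases after its stem-loop, rose by 3.82 (log2; 83 UMIs in positive and 192 in negative cells, edgeR adjusted p = 3.12e-09). Cenpa, the centromere histone, rose by 4.01, H2afv, a second H2A.Z gene, by 1.00, Hist1h2ae by 2.28 and Hist1h1b by 2.61, the last from 8 UMIs in positive and 36 in negative cells. Hist1h1b was at 1.82 to 1.997 CPM in negative cells and passed the filter on low counts through the positive cells, where it had to be high, so its call is no support. Hist1h2ap and Cenpa were as low as 1.83 and 2.38 CPM in negative cells and also needed the positive cells to pass this filter. Their calls are no support either. In positive cells Hist1h2ap ranged from 24.9 to 539 CPM by library. Hist1h4d fell by 1.44. Of 32 histone genes tested, 6 were higher and 4 lower, members included, where 1.39% of 8644 genes were higher and 3.12% lower. The 6 include Hist1h1b, Hist1h2ap and Cenpa, whose calls are no support.

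Genes known to act with histones were read in the same fit. Of 22 histone chaperone genes, 21 were tested and 3 rose, Asf1b (4.01), Chaf1b (3.86) and Anp32e (1.48), the last a chaperone of H2A.Z. Of 23 DNA replication genes, 15 were tested and 9 rose, among them Pclaf (6.45) and Mcm2 (3.30), and of 19 mitosis genes 14 were tested and 14 rose, among them Ccnb1 (8.23). Of all 8644 genes tested, 1.39% were called higher. The filter on low counts keeps such genes largely through the cells where they are high, so these counts of rises are no support. Asf1b, Chaf1b, Pclaf, Mcm2 and Ccnb1 were at most at 1.70 CPM in negative cells. Anp32e was at 14.6 to 21.6 CPM there. Of 16 histone mRNA 3′ processing genes, 15 were tested and 0 passed (edgeR; 0 at an unadjusted p under 0.05), with a median of 0.14 beside -0.07 for all genes.

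In basal cells the same comparison moved 1 member. Hist1h2bc was at 238, 366 and 560 CPM in positive cells against 421, 453 and 1083 (log2 fold change -0.99, SE 0.18, edgeR adjusted p = 2.63e-05), lower in 3 of 3 libraries. The call was 1 of 7 members, against 1.4% of 8976 genes called and 1.28% called lower, and was lost with cells matched on UMIs, with Top2a alone and with DESeq2's Wald test. Hist1h1c missed the threshold at -0.58 (edgeR adjusted p = 0.0532). In hormone-sensing cells only 2 libraries had 10 positive cells and no test was made. Hist1h2bc was at 1129 and 995 CPM in positive against 1423 and 2307 in negative cells of corn oil 2 and 4OHT 2, and Hist1h1c at 408 and 369 against 983 and 1726.

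A second comparison used cells with no Mki67 or Top2a UMI but at least 2 UMIs of the replication genes Rrm2, Pclaf, Clspn, Uhrf1, Mcm5, Mcm6 and Pcna, against cells with none. The positive cells were deeper, with median UMIs of 5084.5 against 3366 in basal cells and 6766 against 4343 in progenitors. Of 15 other DNA replication genes, 7 were tested in basal cells and 6 in progenitors, and 0 passed in either (edgeR). Their median log2 changes were 0.03 and 0.69, beside -0.16 and -0.05 for all genes. No mitosis gene was tested. The positive cells are therefore named by these UMIs alone. In basal cells 4 of 7 members were lower and 0 higher, where 3.15% of 8483 genes were called, 0.519% higher and 2.63% lower. Hist1h2bc was at 263, 170, 173 and 1002 CPM against 444, 477, 427 and 1092 (log2 fold change -1.25, SE 0.19, edgeR adjusted p = 6.2e-08). Hist1h1c was at 177, 317, 109 and 1215 against 434, 486, 320 and 1159 (-1.19, SE 0.19, edgeR adjusted p = 3.12e-07). It was lower in 3 of 4 libraries and slightly higher in 4OHT library 2. H1f0 was lower in 4 of 4 libraries, at 143, 249, 82.1 and 304 against 220, 284, 253 and 732 (-1.20, SE 0.22, edgeR adjusted p = 9.49e-06), and passed no longer without 4OHT library 1 (adjusted p = 0.0603). H3f3b fell by 0.59 (edgeR adjusted p = 0.000715) beside a median of -0.16 for all genes, but was higher in the positive cells of corn oil 2 (3972 against 3615 CPM). Its call was lost without 4OHT library 1 (edgeR adjusted p = 0.406) and with DESeq2's Wald test (adjusted p = 0.117). With cells matched on UMIs, 0 of 5 tested members passed (edgeR; 0 at an unadjusted p under 0.05).

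In progenitors, 2 of 7 members were lower, where 3.91% of 8207 genes were called, 0.731% higher and 3.18% lower; corn oil library 2, with 8 positive cells, was left out. Hist1h4i was at 99.3, 84.8 and 191 CPM against 365, 101 and 221 (log2 fold change -1.24, SE 0.27, edgeR adjusted p = 0.00134), lower in 3 of 3 libraries. Without corn oil library 1 the adjusted p was 0.512. H3f3b was at 2267, 2092 and 3637 against 2904, 2932 and 4229 (-0.76, SE 0.18, edgeR adjusted p = 0.00533). Its call was lost without 4OHT library 1 (edgeR adjusted p = 0.177), without 4OHT library 2 (0.0612) and with DESeq2's Wald test (0.0551). With cells matched on UMIs, 0 of 6 tested members passed (edgeR; 3 at an unadjusted p under 0.05). Hist1h1c went the other way from basal cells, at 254, 191 and 981 CPM in positive progenitors against 196, 79.4 and 346. It was not called (log2 fold change 0.65, SE 0.23, edgeR adjusted p = 0.0908). In corn oil library 2, left out of the fit, it was at 127 against 227. H2afz did not pass in either class, at 0.14 in basal cells.

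**Figure D4:**
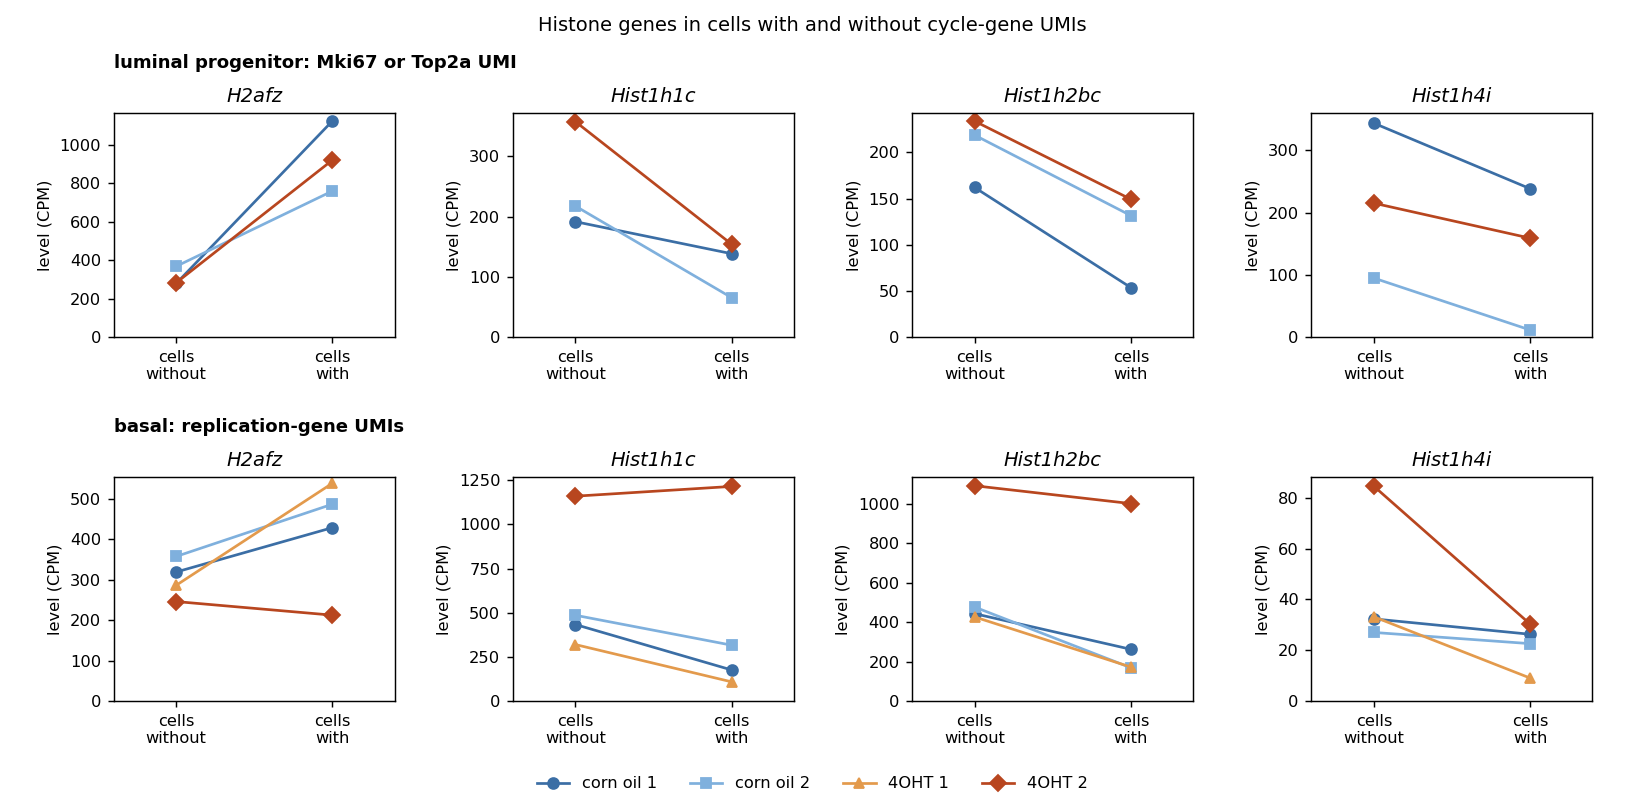
Level in CPM (linear axes from 0) of histone genes in cells without and with UMIs of the cycle genes, 1 line a library. Top, Mki67 or Top2a UMIs in progenitors, and bottom, replication-gene UMIs in basal cells. H2afz rises to 760 to 1123 in Mki67 or Top2a positive progenitors, and Hist1h2bc and Hist1h1c mostly fall.

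The labelled groups were compared within each class over 2 mice against 2. No member passed in any class: 0 of 7 in basal cells, 0 of 7 in progenitors and 0 of 6 tested in hormone-sensing cells (edgeR; 0 in each at an unadjusted p under 0.05, and 0 called by DESeq2). The shares of all genes called were 0% of 10788, 0% of 10120 and 0.0132% of 7589 (edgeR; 465, 166 and 240 at an unadjusted p under 0.05, and 38, 1 and 7 called by DESeq2). In basal cells the fitted log2 changes were 1.15 for Hist1h4i (SE 0.51), 1.03 for H1f0 (SE 0.56), 0.84 for Hist1h2bc (SE 0.50) and 0.82 for Hist1h1c (SE 0.61), each with edgeR adjusted p = 0.999. These values rest on 4OHT library 2: 4OHT library 1 lay within or below the corn oil range for Hist1h1c, Hist1h2bc and H1f0. Without 4OHT library 1, all 4 passed, at 1.45 to 1.75, with 1 4OHT library assumed to vary like the others. The difference of the Mki67 or Top2a comparison between the groups was called for 0 of 7 members in either class (edgeR adjusted p = 1; 0 at an unadjusted p under 0.05), with a single 4OHT library. Of all genes, 0.0446% were called in basal cells, 0.0334% higher and 0.0111% lower, and 0.0116% in progenitors.

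**Figure D5:**
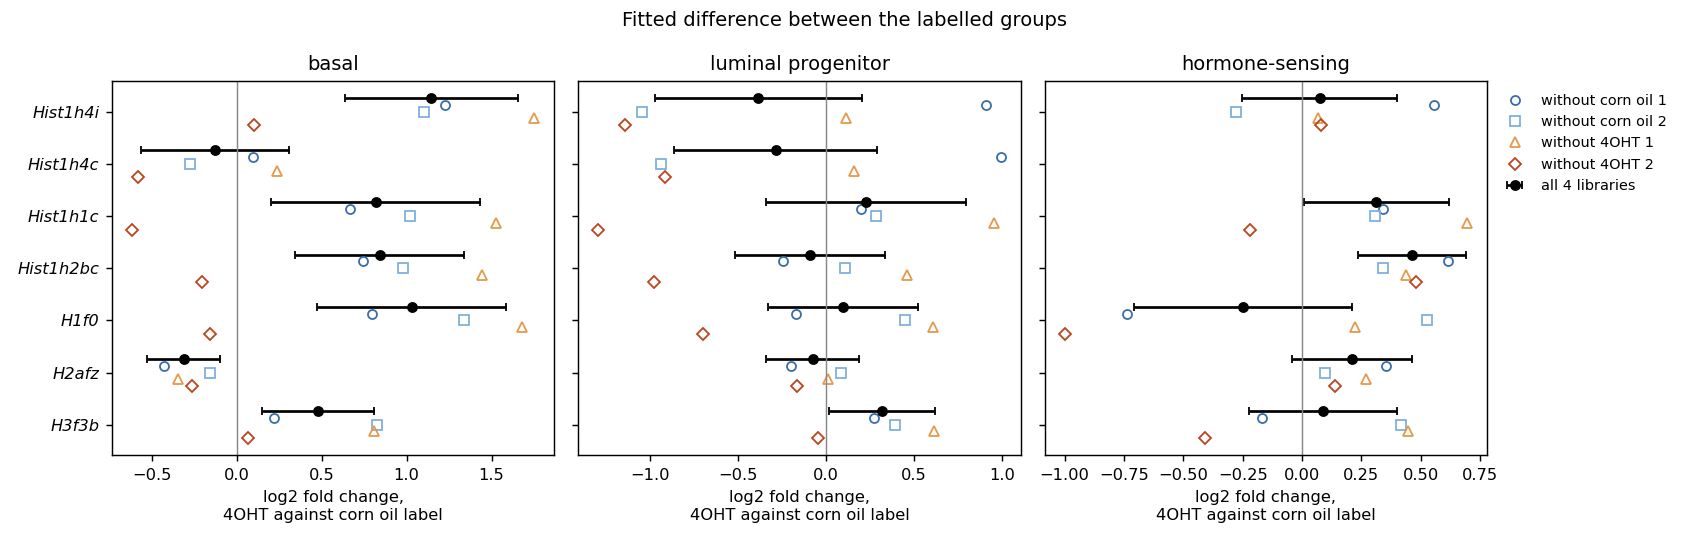
Fitted log2 fold change of each gene, 4OHT label against corn oil label, in the 3 classes, with its standard error and with the values found on leaving out each library. No member passed the test, and in basal cells the values without 4OHT library 2 and without 4OHT library 1 lie far apart.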

How the data were processed

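The data are droplet 3′ single-cell RNA libraries from 2 corn oil and 2 4OHT mice, which the labels describe as polyA RNA. The deposited values are counts: whole UMIs per gene and cell, made by the authors with Cell Ranger 3.0.1 on mm10, per the submitters' processing notes. How multiply mapped or antisense reads were handled is not given in the sources used here, and doublets were not called. The members, lists and rules were chosen with earlier results of these data known. UMIs were summed per library and class or state and divided by the total for levels in CPM. Sums were tested with edgeR 4.0.16 (quasi-likelihood, TMM scaling, filterByExpr, Benjamini-Hochberg over all genes tested, threshold 0.05), with the library as block in comparisons of states. Sums needed 10 cells, and state fits 3 libraries; the defining genes were removed. The tests were checked on simulated data, where 22.1 to 63.2% of genes changed by 2 (log2) were recovered, by comparison. The simulation set the spread of every gene alike (dispersion 0.1), with libraries that differed only in total UMIs. These shares therefore need not hold in the real libraries. Shares were thinned to 2000 UMIs. Alternatives were DESeq2 1.42.0, no filter on low counts, other blocks, other cell rules and each library left out. Likeness used log2 of CPM plus 1, over genes with a mean of at least 20. Histone genes outside the members could be named when they reached 20 CPM in a class or passed a test, and not all of these were named. Hist1h4k was named only as an example of an annotated end. Stem-loops came from the longest transcript of each gene in GENCODE M21 and promoters from RefSeq tables. Of the members, 6 of 7 had a promoter entry and Hist1h2bc did not.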

Additional observations from a re-analysis of the deposited data

Results flagged for a closer look

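The level of H1f0 differed in opposite directions in the 2 classes when cells with replication-gene UMIs were set against cells without. Its mean level was different by -178 CPM in basal cells, lower in 4 of 4 libraries (-429 to -34.9), and by 48.2 in luminal progenitors, higher in 4 of 4 libraries (6.06 to 104). In progenitors it was at 121, 200, 70.7 and 113 CPM in positive cells against 59.1, 96.3, 50.0 and 107 in negative ones. The progenitor values include corn oil library 2, whose 8 positive cells held 11 UMIs and were left out of the fit. That fit gave 0.16 (log2, SE 0.29, edgeR adjusted p = 0.885), which did not pass, and -0.20 to 0.34 with a library left out. The difference between the classes was not tested.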

How the results depend on the processing

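Counts of called genes moved most. For 4OHT against corn oil they were 93 without the filter on low counts, 38 with DESeq2's Wald test and 17 to 127 with a library left out in basal cells, 39, 1 and 31 to 64 in progenitors, and 59, 7 and 4 to 80 in hormone-sensing cells. The samples share only a replicate number, which the labels do not tie to a batch; same-numbered deviations correlated at 0.56, 0.32 and 0.22, and the replicate block called 167, 9 and 3 genes. For Mki67 or Top2a, basal, counts were 53 with size factors, 13 with Wald, 0 with no replicate block, 0 with matched cells and 16 to 101 with a library left out; in progenitors 121 with Wald, 74 with no replicate block, 15 matched and 51 to 417. For replication genes, basal, they were 102 with Wald, 0 with no replicate block, 0 matched and 18 to 293; in progenitors 487 without the filter, 41 with Wald, 1 with no replicate block, 1 matched and 105 to 225. The group difference of the Mki67 or Top2a comparison called 1 and 0 genes (no filter, Wald) in basal cells and 5 and 0 in progenitors. Matched fits tested fewer genes; other causes were not tested.

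These fitted changes crossed 0 with a library left out. None was called over all libraries; without 4OHT library 1, Hist1h1c, Hist1h2bc and H1f0 in basal cells were called for 4OHT. 4OHT, basal: Hist1h4c -0.58 to 0.23, Hist1h1c -0.62 to 1.53, Hist1h2bc -0.20 to 1.45, H1f0 -0.16 to 1.68. 4OHT, progenitor: Hist1h4i -1.15 to 0.91, Hist1h4c -0.94 to 0.99, Hist1h1c -1.30 to 0.96, Hist1h2bc -0.98 to 0.46, H1f0 -0.70 to 0.61, H2afz -0.20 to 0.085, H3f3b -0.045 to 0.61. 4OHT, hormone-sensing: Hist1h4i -0.28 to 0.56, Hist1h1c -0.22 to 0.69, H1f0 -0.9998 to 0.53, H3f3b -0.41 to 0.44. Mki67 or Top2a: Hist1h4c -0.27 to 1.08 and H1f0 -0.23 to 0.027 in basal cells, H1f0 -0.070 to 0.31 and H3f3b -0.13 to 0.012 in progenitors. Replication genes: H2afz -0.035 to 0.27 in basal cells, Hist1h2bc -0.28 to 0.34, H1f0 -0.20 to 0.34 and H2afz -0.031 to 0.18 in progenitors. Other settings turned these uncalled values: the replicate block in 4OHT progenitors (Hist1h1c -0.17, H1f0 -0.010); in basal Mki67 or Top2a, size factors (Hist1h4i 0.031, H1f0 0.063), no filter (H2afz -0.025), Wald (H1f0 0.074), matched cells (H1f0 0.32), without the top 5% of cells by UMIs (H2afz -0.091) and Top2a alone (Hist1h4i 0.39); in progenitors, size factors and Wald (H3f3b 0.036), no filter (H1f0 -0.016), no replicate block (H3f3b 0.011) and matched cells (H1f0 -0.24, H3f3b 0.44); for replication genes in progenitors, no filter (Hist1h2bc -0.15, H2afz -0.038) and cells of at least 500 genes (Hist1h2bc -0.0042); for the group difference in basal cells, no filter (Hist1h1c 0.020). Members called above kept their direction in each setting run; without the block by library, only the H2afz call in Mki67 or Top2a positive progenitors was left. Not run for too few libraries: Mki67 alone and at least 2 UMIs in both classes, Top2a alone in progenitors, and progenitors without the top 5%.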
